A study of Rattus norvegicus with 6 samples.

Results

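Chemokines are small secreted proteins that direct the migration of leukocytes, and 10 of them were described in mammary tumors of rats treated with DATS (diallyl trisulfide, a garlic organosulfide) and of rats that received the vehicle. The members were chosen by gene symbol (Cxcl1, Cxcl2, Cxcl9, Cxcl10, Cxcl11, Cxcl12, Ccl2, Ccl5, Ccl20 and Cx3cl1), and each matched 1 of the 32545 rows of the deposited table. All tumors were of female Sprague-Dawley rats injected intraperitoneally at 21 days of age with 50 mg/kg N-methyl-N-nitrosourea (MNU), an alkylating carcinogen that induces mammary tumors. From 1 week later, 3 tumors came from rats given DATS orally at 50 mg/kg in corn oil and 3 from rats gavaged with 100 µL of corn oil alone, each 5 times a week for 10 weeks. Whether each tumor is from a rat of its own is not stated in the labels, so p-values measure only the spread between these tumors, which may be partly technical. The comparison asks how chemokine transcripts stood in tumors that formed under DATS.

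Chemokines are grouped by the spacing of their first cysteines into the CC, CXC and CX3C families, and they act on receptors coupled to G proteins. Those of inflammation are induced by cytokines through NF-kB or interferon signaling, and different receptors draw in different leukocytes: CXCR2 neutrophils, CXCR3 activated T cells and NK cells, and CCR2 monocytes. In breast tumors, leukocytes, fibroblasts, endothelium and tumor epithelium can all make chemokines, and in whole tissue fewer cells of a type and less RNA per cell cannot be told apart.

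Levels are the deposited FPKM, read numbers divided by gene length and by sequencing depth. The reads recovered from these values came to 13531587 to 16868122 per tumor. Each of the 7 epithelial markers examined, Epcam and Krt8 among them, was present in every tumor, and their summed level was 2676 to 3867 FPKM in DATS tumors and 1965 to 2671 FPKM in vehicle tumors. All 7 had a positive log2 difference, DATS minus vehicle (median 0.43), and 0 passed the test described below; the median was 0.17 without DATS tumor 3 and 0.20, with 6 of 7 positive, after quantile normalization. Markers of T and NK cells summed to 137, 330 and 362 FPKM in DATS tumors 1, 2 and 3, and to 159, 738 and 158 FPKM in vehicle tumors 1, 2 and 3. Neutrophil markers summed to 93.6, 24.4 and 63.8 FPKM in DATS tumors and to 18.8, 172 and 374 FPKM in vehicle tumors. S100a8 and S100a9 made up most of each of these sums, with 125 and 240 FPKM in vehicle tumor 3. Vehicle tumor 1 carried skeletal muscle transcripts, with 1158 FPKM over 4 muscle genes, against 17.1 to 40.6 FPKM in each other tumor.

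None of the 10 chemokines differed between the groups beyond the spread of the tumors. Limma, on log2(FPKM + 1) with Benjamini-Hochberg adjustment over the 13631 genes whose mean reached 1 FPKM, called 0 members and 0 genes in all (0%) at an adjusted p under 0.05. All 10 members passed the filter. At an unadjusted p under 0.05 the counts over all genes were 797 by limma (5.85%) and 704 by limma-voom on the recovered reads (5.16%). No member had an unadjusted limma p under 0.05, the smallest being 0.338 for Cxcl10, with all 6 tumors. The DATS and vehicle values overlapped for all 10 members, whereas 12.2% of all genes tested had groups that did not overlap. The log2 difference, DATS minus vehicle, was above 0 for 4 of the 10 members and for 49.2% of all genes, with a median of -0.20 over the members and -0.005 over all genes. The members' median was 0.15 when DATS tumor 1 was left out and 0.05 when vehicle tumor 2 was, but -0.51 without DATS tumor 3, -0.40 without vehicle tumor 1 and -0.07 without vehicle tumor 3. The extremes lay in few tumors: vehicle tumor 2 was the highest for 5 members, vehicle tumor 3 for 3 and DATS tumor 2 for 2, and DATS tumor 1 was the lowest for 4.

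**Figure D1:**
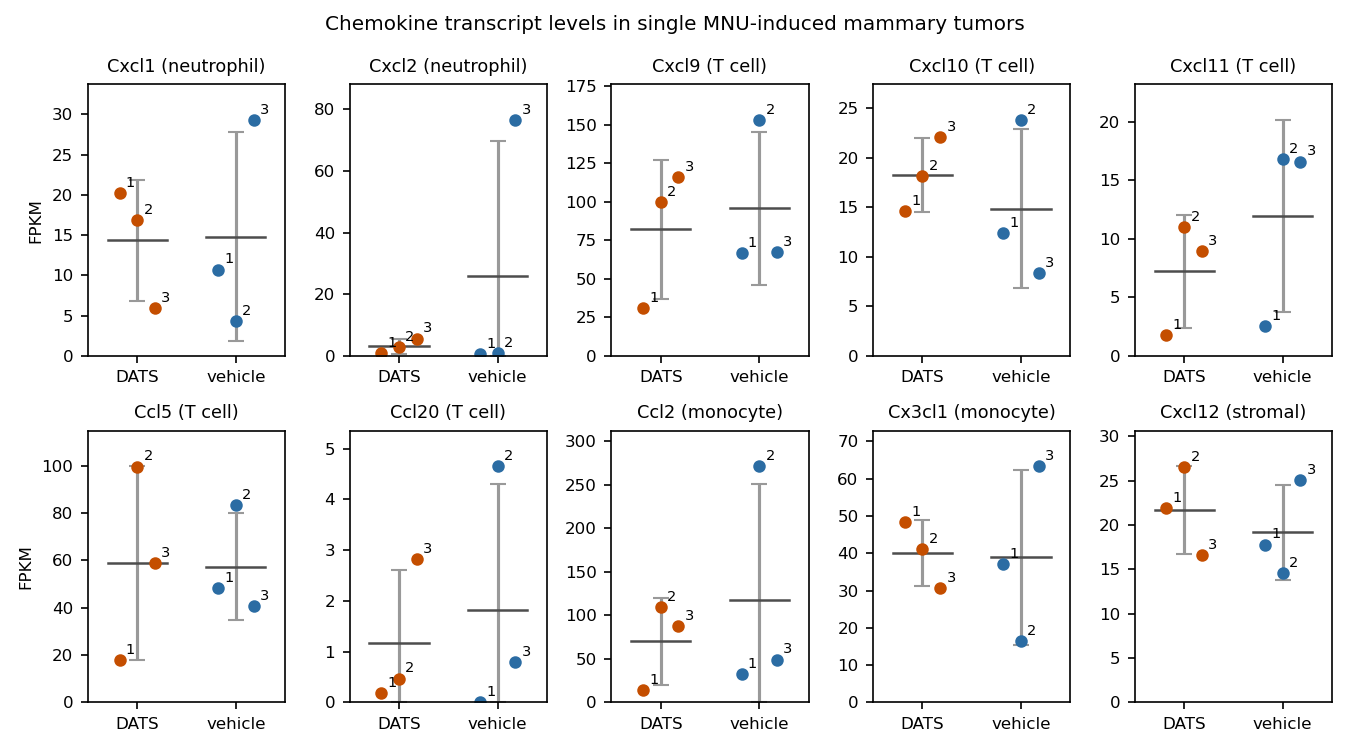
FPKM of each chemokine (vertical axis, from 0, 1 scale per panel) in the 3 DATS and the 3 vehicle tumors, with the tumor number beside each point; the horizontal line is the group mean and the grey bar ± 1 SD, cut at 0. In every panel the groups overlap, and the single vehicle tumors 2 and 3 stand highest for Ccl2 (271 FPKM) and Cxcl2 (76.5 FPKM).

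The neutrophil chemokines were Cxcl1 (ENSRNOG00000002802) and Cxcl2 (ENSRNOG00000002792), both ligands of CXCR2. Cxcl1 had 20.2, 16.9 and 5.90 FPKM in DATS tumors 1, 2 and 3, against 10.7, 4.32 and 29.3 FPKM in vehicle tumors 1, 2 and 3. Cxcl2 had 0.801, 2.83 and 5.63 FPKM in DATS tumors, against 0.635, 0.948 and 76.5 FPKM in vehicle tumors. Vehicle tumor 3 was the highest tumor for both genes, and for Cxcl2 no other tumor came near it. The 76.5 FPKM of Cxcl2 there rested on 1188 reads, and the values of the other tumors on 12 to 84. Cxcl2 thus ranged 121-fold over the 6 tumors, and the SD of its log2 values, 2.12, was larger than that of 99.7% of the genes tested and of 99.6% of the 5453 genes of like mean level (within 1 on the log2 scale).

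The log2 difference of Cxcl2 was -0.81 ± 1.501 (SE), with a 95% interval of -4.42 to 2.80 (limma adjusted p = 0.939). Without vehicle tumor 3 it was 1.003 (limma adjusted p = 0.866). Cxcl1 averaged 14.3 ± 7.50 FPKM in DATS tumors and 14.8 ± 13.0 FPKM in vehicle tumors (SD, n = 3 each), a log2 difference of 0.16 ± 0.71 (SE; limma adjusted p = 0.981). Without vehicle tumor 2, the lowest for Cxcl1, it was -0.45, and without vehicle tumor 3 it was 0.80. The genes also differed in their proportion to each other. The ratio of Cxcl2 to Cxcl1, both per length, was 0.0396, 0.168 and 0.955 in DATS tumors 1, 2 and 3 and 0.0592, 0.220 and 2.61 in vehicle tumors 1, 2 and 3, so that Cxcl2 exceeded Cxcl1 in vehicle tumor 3 alone.

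In the RefSeq annotation of assembly GRCr8, Cxcl1 and Cxcl2 are neighbours on chromosome 14. The 250 bases before each gene's start are shown because these genes were highest in the same tumor; capitals mark matches to the kappa B motif, the binding motif of NF-kB. It was searched on both strands as GGG, a purine, any base, A or T, a pair of pyrimidines and CC, with overlapping matches joined; looser spellings were not searched. The Cxcl1 window is chr14:17479322-17479571 on the minus strand and the Cxcl2 window chr14:17467256-17467505 on the minus strand, both GRCr8, printed 5′ to 3′ along the gene.
Cxcl1: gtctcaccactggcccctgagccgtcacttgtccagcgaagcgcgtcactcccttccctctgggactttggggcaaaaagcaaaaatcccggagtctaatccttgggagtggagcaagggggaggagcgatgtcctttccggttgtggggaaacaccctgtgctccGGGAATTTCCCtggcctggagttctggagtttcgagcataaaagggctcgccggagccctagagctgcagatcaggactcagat
Cxcl2: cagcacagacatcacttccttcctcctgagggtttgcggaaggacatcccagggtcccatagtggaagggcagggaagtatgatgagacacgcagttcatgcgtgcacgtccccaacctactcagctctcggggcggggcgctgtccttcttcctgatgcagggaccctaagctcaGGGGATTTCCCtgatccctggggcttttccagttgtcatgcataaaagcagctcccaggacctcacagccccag
Each window held 1 match, starting 84 bases before the start of Cxcl1 and 74 bases before that of Cxcl2. The motif occurred in 3.54% of the 33469 promoter windows of this length in the RefSeq table. Cx3cl1, a monocyte chemokine, was also highest in vehicle tumor 3 (63.3 FPKM), and its window held no match. A match is a description of the letters and shows no binding.

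Other genes of neutrophil inflammation were high in the same tumor; of these, Cxcl3, Cxcl6 and Il1b were singled out after their values had been seen. Cxcl3, another CXCR2 ligand, had 0.146, 1.82 and 4.32 FPKM in DATS tumors and 0.0774, 1.57 and 67.2 FPKM in vehicle tumors. Cxcl6, also of the CXC family, was listed at 0, 0.319 and 0.221 FPKM in DATS tumors and at 0, 0.125 and 21.4 FPKM in vehicle tumors. Il1b, an inflammatory cytokine that induces neutrophil chemokines, had 3.59, 6.74 and 10.2 FPKM in DATS tumors and 6.06, 7.96 and 77.5 FPKM in vehicle tumors. In each of them vehicle tumor 3 was far above the other 5 tumors. The calprotectin genes S100a8 and S100a9, abundant in neutrophils, reached 125 and 240 FPKM there, against at most 84.5 and 82.3 FPKM in each other tumor. Of the 7 neutrophil markers 4 passed the filter, and 3 of these were highest in vehicle tumor 3. The fourth, Camp, a neutrophil granule gene, had 3.08, 0.0996 and 0.870 FPKM in DATS tumors and 0, 2.73 and 2.14 FPKM in vehicle tumors, and so was highest in DATS tumor 1. The granule genes Mpo, Elane and Ltf did not exceed 1.22 FPKM in any tumor, and Ltf was listed at 0 in vehicle tumors 1 and 3. The part of neutrophil content in the Cxcl1 and Cxcl2 levels was not tested.

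**Figure D2:**
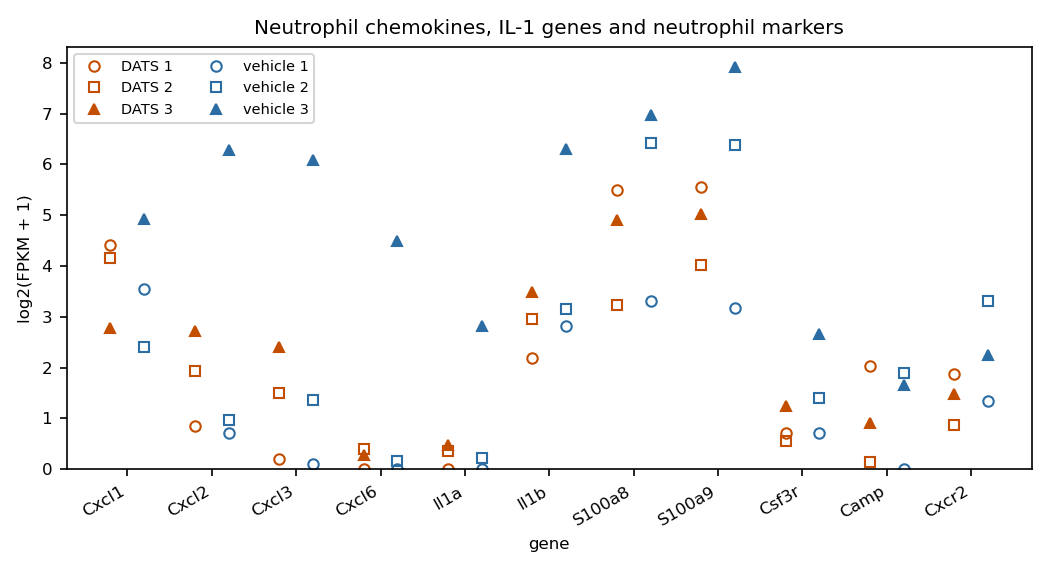
log2(FPKM + 1) (vertical axis) of the CXCR2 ligands Cxcl1, Cxcl2 and Cxcl3, of Cxcl6, of Il1a and Il1b, of the neutrophil markers S100a8, S100a9, Csf3r and Camp and of the receptor Cxcr2, with 1 point per tumor, DATS to the left and vehicle to the right of each gene. The filled triangle of vehicle tumor 3 is the top point for every gene but Camp, which was highest in DATS tumor 1 at 3.08 FPKM, and Cxcr2, which was highest in vehicle tumor 2 at 8.89 FPKM.

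The T cell chemokines were Cxcl9 (ENSRNOG00000022242), Cxcl10 (ENSRNOG00000022256) and Cxcl11 (ENSRNOG00000022298), the interferon-induced ligands of CXCR3, with Ccl5 (ENSRNOG00000010906), a CC chemokine made by activated T cells among others, and Ccl20 (ENSRNOG00000015992), the ligand of CCR6. Cxcl9 had 31.1, 99.5 and 116 FPKM in DATS tumors 1, 2 and 3, against 66.4, 153 and 67.5 FPKM in vehicle tumors 1, 2 and 3. Cxcl10 had 14.6, 18.1 and 22.1 FPKM in DATS tumors, against 12.4, 23.8 and 8.34 FPKM in vehicle tumors. Vehicle tumor 2 was highest for both and the groups overlapped. Cxcl11 had 1.79, 11.0 and 8.92 FPKM in DATS tumors, against 2.52, 16.8 and 16.6 FPKM in vehicle tumors. Here vehicle tumor 3 came close to vehicle tumor 2, although it was the lowest of all for Cxcl10. Per length, Cxcl11 was 0.123, 0.605 and 0.404 of Cxcl10 in DATS tumors and 0.204, 0.705 and 1.98 of it in vehicle tumors, so the CXCR3 ligands did not keep one proportion over the tumors.

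Ccl5 had 17.7, 99.6 and 58.8 FPKM in DATS tumors, against 48.2, 83.2 and 40.7 FPKM in vehicle tumors. The DATS group held both the highest and the lowest tumor for this gene. Ccl20 was the weakest member, at 0.182, 0.471 and 2.83 FPKM in DATS tumors and at 0, 4.65 and 0.790 FPKM in vehicle tumors. It rested on 0 to 54 reads per tumor, and the 0 reads of vehicle tumor 1 allow a level of up to 0.216 FPKM (3 reads; counting error only). DATS tumor 1 was the lowest tumor for Cxcl9, Cxcl11 and Ccl5, and of the 5 T cell chemokines 4 were highest in vehicle tumor 2.

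Of the 5 T cell chemokines 1 had a positive and 4 a negative log2 difference, with a median of -0.21, and none was called. Cxcl10 averaged 18.2 ± 3.75 FPKM in DATS tumors and 14.8 ± 8.04 FPKM in vehicle tumors (SD, n = 3 each), a log2 difference of 0.38 ± 0.37 (SE; limma adjusted p = 0.877). Without vehicle tumor 2 it was 0.77 (limma unadjusted p = 0.0271, adjusted p = 0.978) and without vehicle tumor 3 it was 0.06. Cxcl9 averaged 82.2 ± 45.0 FPKM in DATS tumors and 95.6 ± 49.7 FPKM in vehicle tumors (SD, n = 3 each), a log2 difference of -0.30 ± 0.57 (SE; limma adjusted p = 0.939). The difference of Cxcl9 turned positive without DATS tumor 1 (0.28) and without vehicle tumor 2 (0.09). Ccl5 had a log2 difference of -0.21 ± 0.62 (SE; limma adjusted p = 0.971), which likewise turned to 0.48 without DATS tumor 1 and to 0.09 without vehicle tumor 2. Cxcl11 had a log2 difference of -0.58 (95% interval -2.53 to 1.38), which was 0.08 without DATS tumor 1 and -1.35 without vehicle tumor 1. Ccl20 had a log2 difference of -0.20 (95% interval -1.99 to 1.59), which was 0.13 without DATS tumor 1 and 0.49 without vehicle tumor 2.

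T and NK cell markers were, like most of the T cell chemokines, high in vehicle tumor 2. All 9 markers were detected in every tumor, 8 of the 9 tested rows were highest in vehicle tumor 2, and 5 were lowest in DATS tumor 1. The order of the tumors by the summed T and NK markers, with vehicle tumor 2 at the top, DATS tumors 3 and 2 next and DATS tumor 1 last, was also their order by Cxcl9, except that vehicle tumors 1 and 3, nearly equal in both, changed places. Cxcl11 departed from it, since vehicle tumor 3 had 16.6 FPKM of Cxcl11 at a summed marker level of 158 FPKM. Cxcl10, Ccl5 and Ccl20 departed from this order as well. DATS tumor 1, last by the markers, had 14.6 FPKM of Cxcl10, above the 12.4 and 8.34 FPKM of vehicle tumors 1 and 3. Ccl5 was highest in DATS tumor 2 (99.6 FPKM), and Ccl20 was lowest in vehicle tumor 1 (0 FPKM). The part of T cell content in these levels was not tested.

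**Figure D3:**
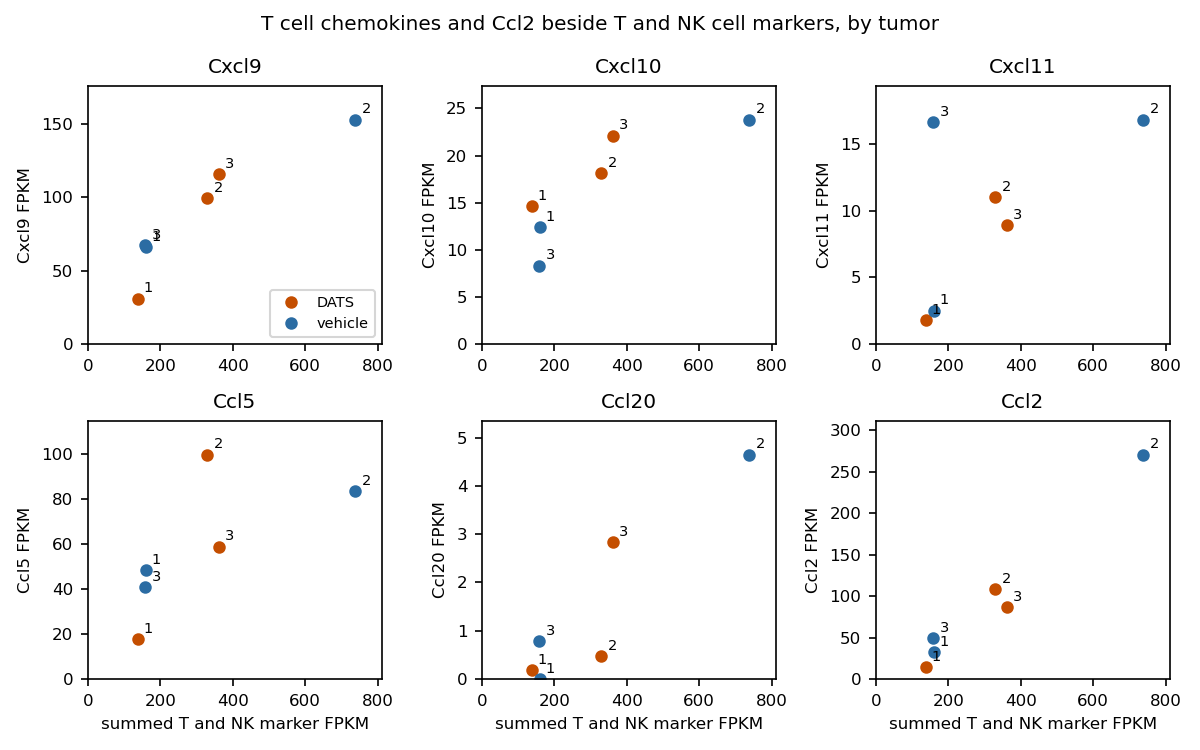
FPKM of the 5 T cell chemokines and of Ccl2 (vertical axes, from 0) against the summed FPKM of 9 T and NK cell markers (horizontal axis), with 1 numbered point per tumor (DATS orange, vehicle blue). Vehicle tumor 2, at 738 FPKM of markers, is the top point for Cxcl9, Cxcl10, Cxcl11, Ccl20 and Ccl2, and DATS tumor 2 for Ccl5.

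The genes Cxcl11, Cxcl10 and Cxcl9 follow each other on chromosome 14 in the RefSeq annotation of GRCr8. Of these 3 neighbours, the windows of Cxcl10 and Cxcl11 held motif matches in the 250 bases before the start, and they are shown for that reason: Cxcl10 as chr14:15988816-15989065 and Cxcl11 as chr14:15973478-15973727, both on the plus strand of GRCr8. Capitals mark the kappa B motif and, in Cxcl10 nearest the 5′ end, the interferon-stimulated response element, searched on both strands as GAAA, any 2 bases, GAAA.
Cxcl10: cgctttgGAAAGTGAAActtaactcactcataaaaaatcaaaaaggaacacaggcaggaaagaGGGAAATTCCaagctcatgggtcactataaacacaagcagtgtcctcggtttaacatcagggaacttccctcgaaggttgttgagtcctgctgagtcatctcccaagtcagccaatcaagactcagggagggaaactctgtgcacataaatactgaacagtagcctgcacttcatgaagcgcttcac
Cxcl11: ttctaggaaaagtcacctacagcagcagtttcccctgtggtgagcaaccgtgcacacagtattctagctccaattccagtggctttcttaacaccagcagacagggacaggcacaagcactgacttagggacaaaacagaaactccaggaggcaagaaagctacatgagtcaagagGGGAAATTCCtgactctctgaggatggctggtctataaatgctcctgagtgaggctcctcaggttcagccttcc
The letters of the kappa B match, GGGAAATTCC, were identical in both windows, 187 bases before the start of Cxcl10 and 74 bases before that of Cxcl11. The response element GAAAGTGAAA lay 243 bases before the start of Cxcl10, and this motif occurred in 3.41% of all windows. Of the 8 members with a window in the table, 5 held a kappa B match (Cxcl1, Cxcl2, Cxcl10, Cxcl11 and Ccl20) and 1 the response element, and Cxcl9, Cx3cl1 and Cxcl12 held neither in this window.

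The monocyte chemokines were Ccl2 (ENSRNOG00000007159), the main ligand of CCR2, and Cx3cl1 (ENSRNOG00000016326), fractalkine, a membrane-anchored chemokine of epithelium and endothelium that binds CX3CR1. Ccl2 had 13.96, 109 and 87.2 FPKM in DATS tumors 1, 2 and 3, against 32.1, 271 and 49.0 FPKM in vehicle tumors 1, 2 and 3. Cx3cl1 had 48.3, 41.1 and 30.7 FPKM in DATS tumors, against 37.1, 16.5 and 63.3 FPKM in vehicle tumors. The genes ran opposite at the extremes: vehicle tumor 2 was the highest for Ccl2 and the lowest for Cx3cl1, and within the DATS group tumor 1 was the lowest for Ccl2 and the highest for Cx3cl1. The ratio of Ccl2 to Cx3cl1, per length, was accordingly 0.289, 2.66 and 2.84 in DATS tumors and 0.867, 16.4 and 0.773 in vehicle tumors.

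Ccl2 averaged 70.2 ± 50.0 FPKM in DATS tumors and 117 ± 133 FPKM in vehicle tumors (SD, n = 3 each), a log2 difference of -0.54 ± 1.03 (SE; limma adjusted p = 0.940). It was 0.36 without DATS tumor 1, 0.37 without vehicle tumor 2 and -1.15 without vehicle tumor 1. Its SD over the 6 tumors, 1.46 on the log2 scale, exceeded that of 98.6% of the genes tested. Cx3cl1 averaged 40.0 ± 8.89 FPKM in DATS tumors and 39.0 ± 23.5 FPKM in vehicle tumors (SD, n = 3 each), a log2 difference of 0.21 ± 0.47 (SE; limma adjusted p = 0.956) that turned to -0.29 without vehicle tumor 2. Monocyte and macrophage markers summed to 1214, 1463 and 2126 FPKM in DATS tumors and to 1017, 2621 and 1324 FPKM in vehicle tumors, and 6 of 9 were highest in vehicle tumor 2. Lyz2 alone made up 1597 FPKM of the sum in vehicle tumor 2. Of the 7 epithelial markers, 6 were lowest in vehicle tumor 2, where Cx3cl1 was also lowest. The part of either cell type in these levels was not tested.

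The stromal chemokine Cxcl12 (ENSRNOG00000013589), which retains leukocytes and progenitors through CXCR4, was the steadiest member. It had 21.9, 26.5 and 16.6 FPKM in DATS tumors, against 17.8, 14.6 and 25.1 FPKM in vehicle tumors. The highest tumor had 1.81 times the FPKM of the lowest. The SD over the 6 tumors, 0.33 on the log2 scale, was larger than that of 55.0% of the genes tested. Among the 5130 genes of like mean level, it was larger than that of 65.7%. Its mean was 21.7 ± 4.94 FPKM in DATS tumors and 19.2 ± 5.34 FPKM in vehicle tumors (SD, n = 3 each), with a log2 difference of 0.18 ± 0.25 (SE; 95% interval -0.43 to 0.79; limma adjusted p = 0.920). It was 0.01 without vehicle tumor 2 and 0.38 without vehicle tumor 3. Fibroblast markers summed to 935, 1095 and 1566 FPKM in DATS tumors and to 1021, 1713 and 1532 FPKM in vehicle tumors, and vehicle tumor 2, the lowest for Cxcl12, had the highest sum. Dcn made up 851 FPKM of that sum, and of the 8 fibroblast markers 3 peaked in DATS tumor 3, 3 in vehicle tumor 2 and 2 in vehicle tumor 3. The part of fibroblast content in the Cxcl12 level was not tested.

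**Figure D4:**
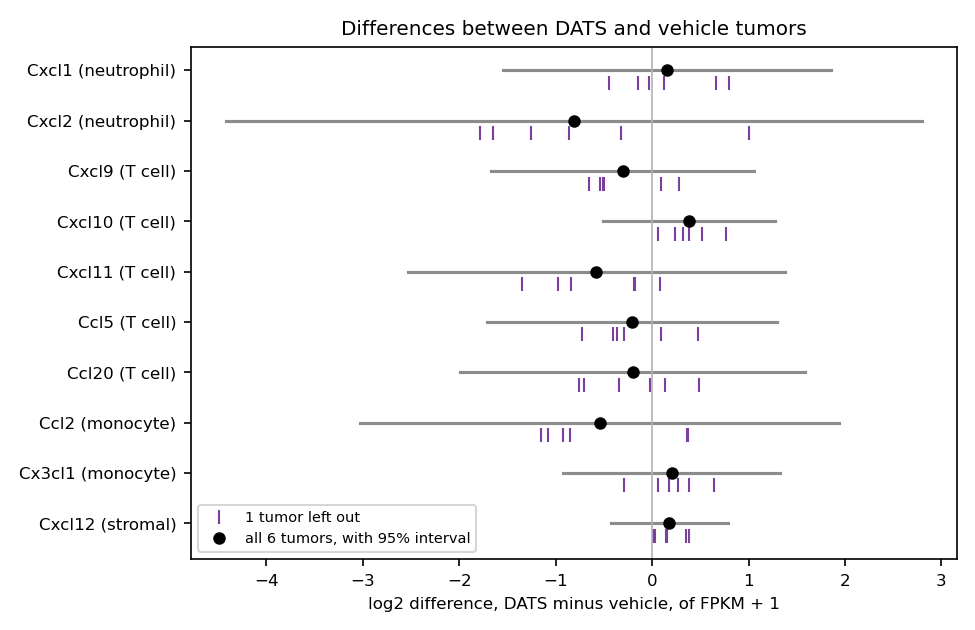
Log2 difference of log2(FPKM + 1), DATS minus vehicle (horizontal axis), for the 10 chemokines: black points are the estimates from all 6 tumors, grey lines their 95% limma intervals, and purple ticks the 6 estimates with 1 tumor left out. Every interval spans 0, and the Cxcl2 interval, from -4.42 to 2.80, is the widest.

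By level per length, the members were ordered Cxcl9, Ccl2, Ccl5, Cx3cl1, Cxcl12, Cxcl10, Cxcl1, Cxcl11, Cxcl2 and Ccl20 when ranked by mean log2(FPKM + 1) over the 6 tumors. Of the 9 pairs of neighbours in this order, only Cx3cl1 and Cxcl12 differed by more than the SD of their difference over the tumors, by 0.84 ± 0.41 on the log2 scale, with Cx3cl1 higher in 6 of 6 tumors. Cxcl9 exceeded Ccl2 by 0.34 ± 0.73 and in 4 of 6 tumors, and Cxcl2 exceeded Ccl20 by 1.23 ± 2.29 and in 5 of 6. The mean level of Cxcl9, 88.9 FPKM, lay above that of 92.1% of the genes tested, and that of Ccl20, 1.49 FPKM, above that of 5.94%.

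Receptors of these ligands were measured as well and none was called. Cxcr3, the receptor of Cxcl9, Cxcl10 and Cxcl11, had 5.25, 21.5 and 19.0 FPKM in DATS tumors and 7.27, 25.8 and 7.81 FPKM in vehicle tumors, with DATS tumor 1 lowest and vehicle tumor 2 highest, as for Cxcl9. Cxcr2, the neutrophil receptor of Cxcl1 and Cxcl2, had 2.66, 0.842 and 1.80 FPKM in DATS tumors and 1.55, 8.89 and 3.77 FPKM in vehicle tumors. Its highest tumor was vehicle tumor 2, not vehicle tumor 3, where both ligands were highest. Ccr2, the receptor of Ccl2, was at 0.518 to 0.754 FPKM in DATS tumors and at 0.794, 4.98 and 0.483 FPKM in vehicle tumors, so that it too was highest where its ligand was. Cx3cr1 had 3.31 to 4.69 FPKM in DATS tumors and 2.65 to 6.41 FPKM in vehicle tumors. Ccr6, the receptor of Ccl20, did not exceed 0.454 FPKM in any tumor and did not pass the filter.

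Cxcr4, the signaling receptor of Cxcl12, had 13.0, 31.6 and 35.1 FPKM in DATS tumors and 14.1, 56.4 and 32.0 FPKM in vehicle tumors. Ackr3, which binds and clears Cxcl12, had 11.8, 7.77 and 13.3 FPKM in DATS tumors and 7.85, 33.9 and 8.60 FPKM in vehicle tumors. Both were highest in vehicle tumor 2, the tumor with the least Cxcl12. Among all chemokine receptors, 21 of 22 had a row and 15 passed the filter. Of these, 0 passed the test, 2 had a positive and 13 a negative log2 difference, and the median was -0.43, against -0.005 over all genes tested. Vehicle tumor 2 was the highest tumor for 12 of the 15 receptors, and without it 10 of the 15 differences were positive, with a median of 0.19. Without vehicle tumor 1 all 15 were negative, with a median of -0.68, and without DATS tumor 1 the median was -0.29 and 10 of 15 were negative. The receptors with the smallest p were Xcr1, the receptor of Xcl1 on dendritic cells, Ccr1 and Cxcr2, with log2 differences of -0.63, -0.77 and -0.89 (limma adjusted p = 0.819, 0.819 and 0.844).

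**Figure D5:**
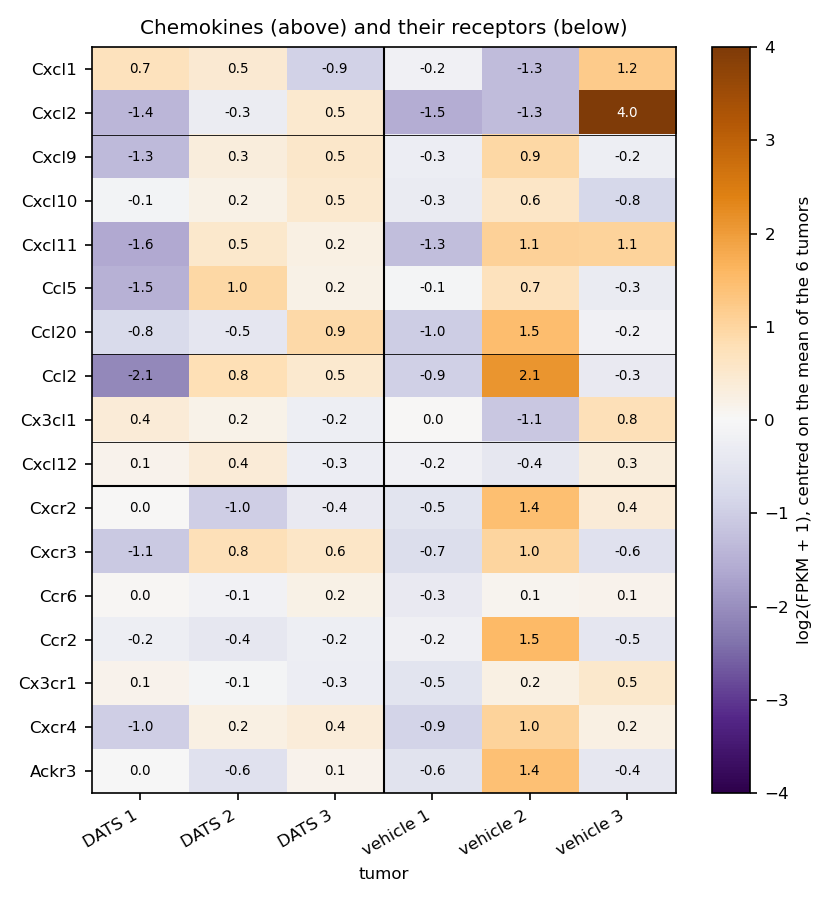
Log2(FPKM + 1) of the 10 chemokines (upper block, by class) and of 7 of their receptors (lower block), centred on the mean of the 6 tumors, with DATS tumors in the left and vehicle tumors in the right columns and the centred value printed in each cell. Vehicle tumor 2 has the highest value of 5 of the 7 receptors and of Ccl2 (271 FPKM), and vehicle tumor 3 that of Cxcl2 (76.5 FPKM).

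Other chemokines, 26 symbols with a row each, gave 22 that passed the filter, of which 10 had a positive and 12 a negative log2 difference (median -0.14) and 0 passed the test. With every tumor's FPKM scaled to the same total, 5 were positive and 17 negative; leaving out vehicle tumor 2 gave a median of 0.05 and leaving out DATS tumor 1 one of 0.08, whereas it was -0.40 without vehicle tumor 1. Those with the smallest p were Xcl1, Cxcl17 and Ccl28. Xcl1, made by cytotoxic T and NK cells, had 3.99, 18.9 and 13.9 FPKM in DATS tumors and 4.07, 8.37 and 4.13 FPKM in vehicle tumors. Its lowest tumor and its 2 highest all lay in the DATS group (log2 difference 0.87 ± 0.55, SE; limma adjusted p = 0.851). The mucosal and epithelial chemokines Cxcl17 and Ccl28 were highest in DATS tumor 1, at 56.1 and 17.3 FPKM, and at most 9.88 and 2.53 FPKM elsewhere. Vehicle tumor 2 was the highest tumor for 11 of the 22, and DATS tumor 1 the lowest for 10.

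Inducers of chemokines did not pass the test either. Of 11 tested genes of NF-kB signaling and inducing cytokines, 3 had a positive and 8 a negative log2 difference (median -0.31), and the median was -0.10 without vehicle tumor 2, -0.11 without vehicle tumor 3 and -0.17 when DATS tumor 3 was left out. Leaving out vehicle tumor 1 gave -0.49, with 1 positive and 10 negative, and equal totals gave -0.48. Rela, the p65 subunit of NF-kB, had 62.6, 61.5 and 55.9 FPKM in DATS tumors and 39.8, 51.3 and 52.9 FPKM in vehicle tumors, which did not overlap (log2 difference 0.33 ± 0.16, SE; limma adjusted p = 0.819). Tnfaip3 and Nfkb1, a feedback inhibitor and a subunit of NF-kB, had log2 differences of -0.59 and -0.25. Of 11 interferon genes, 6 had a positive and 5 a negative log2 difference (median 0.02). With equal totals 3 were positive and 8 negative, with a median of -0.15, and with 1 tumor left out the median ran from -0.17 without vehicle tumor 1 to 0.13 without vehicle tumor 2. Stat2, a transcription factor of type I interferon signaling, had 34.7, 35.1 and 45.1 FPKM in DATS tumors and 26.1, 32.0 and 25.5 FPKM in vehicle tumors, without overlap (log2 difference 0.44 ± 0.17, SE; limma adjusted p = 0.819). Of the 11 tested genes in each list, 1 had groups that did not overlap, against 12.2% of all genes tested. The separations of Rela and Stat2 are in FPKM as deposited, whose total was higher in every DATS tumor than in every vehicle tumor. Divided by these totals, Rela would be highest in vehicle tumor 3, whose total was the lowest (566304), so its groups would overlap. Whether those of Stat2 stay apart with equal totals was not examined. Ifng, the inducer of the CXCR3 ligands, was listed at 0, 0.726 and 1.27 FPKM in DATS tumors and had 0.668, 3.46 and 0.948 FPKM in vehicle tumors, again with DATS tumor 1 lowest and vehicle tumor 2 highest. Its mean of 1.18 FPKM was near the filter, and the reads behind these low values are not given here. The type I interferon receptor gene Ifnar1 had a log2 difference of -0.33.

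Genes with the tumor pattern most like that of each class were ranked by the root mean square difference (RMS, log2 scale) between their centred values over the 6 tumors and the mean centred profile of the class. For the neutrophil chemokines the nearest were Klk10, Il1a, Gkn3, Scgb1a1 and Fam50a, at an RMS of 0.42 to 0.53. The neutrophil profile averages Cxcl1 and Cxcl2, which ran in opposite order over the DATS tumors, so a gene near it need not resemble both. Il1a, an inflammatory cytokine, was listed at 0, 0.291 and 0.396 FPKM in DATS tumors and at 0, 0.160 and 6.03 FPKM in vehicle tumors, so that it too stood out in vehicle tumor 3. For the T cell chemokines they were Mmp23, Mfng, Chst2, Slc2a1 and Apol11a (0.13 to 0.17), and for the monocyte chemokines Unc13d, Slc2a1, Csf1, Tifa and Pfkfb3 (0.08 to 0.15). The monocyte profile averages Ccl2 and Cx3cl1, which ran opposite at the extremes, so a gene near this average need not resemble either. Csf1, the growth factor of macrophages, had 5.67, 11.9 and 12.6 FPKM in DATS tumors and 6.31, 14.3 and 11.7 FPKM in vehicle tumors. For Cxcl12 they were Rab34, Runx1, Itgb4, Zscan29 and Mgst2 (0.06 to 0.09). These genes were picked from 13631 for their likeness over 6 tumors, and the distance is a description.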

How the data were processed

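RNA sequencing of 6 MNU-induced rat mammary tumors was analysed, 3 of DATS-treated and 3 of vehicle-treated rats by the treatment label. The authors deposited FPKM per gene and tumor, per the file headers; aligner, annotation, build and strand handling: not given in the sources used here. Total RNA went into libraries by standard Illumina protocols, per the labels. Within a tumor the values are whole multiples of 1 read's value, which gave whole reads for all 20891 genes above 0 (tolerance 1e-06); a common divisor was put back for 758 genes. FPKM totals differed, from 662528 to 710096 in DATS and from 566304 to 656017 in vehicle tumors.

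Genes with a mean of at least 1 FPKM were fitted as log2(FPKM + 1) with limma 3.58.1 in R 4.3.3 (eBayes with a mean-variance trend, group alone in the model, two-sided tests, Benjamini-Hochberg adjustment, calls at an adjusted p under 0.05). The pseudocount acts most on weakly expressed genes, whose differences can change in size or sign with it. With 0.1 in its place, the log2 difference of Cxcl2 went from -0.81 to -0.65 and that of Ccl20 from -0.20 to 0.05. Alternatives were a pseudocount of 0.1, no filter, equal totals, quantile normalization, sample weights, the replicate number as a block, limma-voom on recovered reads and each tumor left out. The code was tested on simulated data. The members, classes and lists were chosen with earlier results of these data known. All members are named, with the 3 genes of smallest p in each other list, the members' receptors (1 is not reported here) and the 5 genes most like each class. Of 127 list symbols, 3 (Ackr1, Pecam1 and Myh4) matched no row and are not analysed here, and 1 matched through an older name; Tnf and Gzmb had 2 rows each. Promoter windows are from RefSeq (GRCr8), 250 bases before each start, with 8 of 10 members matched. Proteins were not analysed here. Other steps ran in Python 3.11.15 (pandas 2.3.3, numpy 2.4.6), with figures by matplotlib 3.10.9.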

Additional observations from a re-analysis of the deposited data

How the results depend on the processing

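The number of genes called was 0 with limma in all 13 alternatives, and so was the number of chemokines called; at an unadjusted p under 0.05 the counts over all genes were 428 to 1663. Of the 130 log2 differences of single chemokines recomputed, 110 kept their sign and 20 did not. The replicate block and the fit without a filter could not change a log2 difference, so the signs kept there were fixed in advance. The sign of Ccl20 turned with a pseudocount of 0.1 (0.05) and with limma-voom (0.54), that of Cxcl1 with equal totals (-0.01), and those of Cxcl9, Ccl5 and Ccl2 with sample weights (0.09, 0.51 and 0.23); apart from the lowest Ccl20 values, on which the pseudocount acts, the cause was not tested. Equal totals moved the median of all genes by -0.16. With 1 tumor left out, the differences ran from -0.45 to 0.80 for Cxcl1, from -1.78 to 1.003 for Cxcl2, from -0.65 to 0.28 for Cxcl9, from -1.35 to 0.08 for Cxcl11, from -0.73 to 0.48 for Ccl5, from -0.76 to 0.49 for Ccl20, from -1.15 to 0.37 for Ccl2 and from -0.29 to 0.64 for Cx3cl1. Cxcl10 and Cxcl12 stayed above 0 in every alternative, at 0.06 to 0.77 and 0.01 to 0.38, without being called in any. With the replicate number of the titles as a block, 0 genes were called; Cxcl11 had a log2 difference of -0.58 and an unadjusted limma p of 0.0333. The one other unadjusted p under 0.05 among the chemokines in these alternatives was that of Cxcl10 without vehicle tumor 2 (0.0271). The deviations from the group means correlated at 0.15, -0.02 and -0.12 for tumors of the same number. For tumors of different numbers the correlations ran from -0.23 to 0.27, so the numbers were not taken to pair the tumors. Deviations within a group sum to 0 for each gene, so these correlations cannot exclude pairing. Depth limits Ccl20 and the low values of Cxcl2, which rested on 12 to 84 reads outside vehicle tumor 3.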

Other observations

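Marker lists of the other cell types gave no call by limma with adjustment over all genes. Fibroblast markers had 2 positive and 6 negative log2 differences (median -0.16), and endothelial markers 2 and 2 (median -0.01). With each tumor's FPKM scaled to equal totals, 0 of 8 and 0 of 4 were positive. With 1 tumor left out, the fibroblast median ran from -0.37 without DATS tumor 3 to -0.01, with 4 positive and 4 negative, without DATS tumor 1, and the endothelial median from -0.40 without vehicle tumor 1 to 0.17 without vehicle tumor 3. Endothelial markers summed to 22.2, 22.9 and 38.4 FPKM in DATS tumors 1, 2 and 3 and to 14.3, 36.6 and 39.7 FPKM in vehicle tumors 1, 2 and 3. B and plasma cell markers summed to 25.4 to 42.1 FPKM in DATS tumors, and among vehicle tumors to 84.3 FPKM in tumor 2 and at most 31.4 FPKM in tumors 1 and 3; 4 of the 4 tested were highest in vehicle tumor 2.

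Ccl7, a monocyte chemokine whose gene lies next to Ccl2 in the RefSeq annotation and which was singled out after its values had been seen, had 4.12, 60.5 and 60.2 FPKM in DATS tumors and 17.4, 220 and 13.7 FPKM in vehicle tumors. As for Ccl2, the lowest tumor was DATS tumor 1 and the highest vehicle tumor 2.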
